A study of Mus musculus with 4 samples.

Results

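The proneural basic helix-loop-helix factors are transcription factors that commit progenitors to a neuronal or sensory fate. The 8 genes described here are Neurog1, Neurog2, Neurod1, Neurod2, Neurod4, Nhlh1, Nhlh2 and Atoh1, found by symbol among the 49997 genes of the count tables. Each of the 8 was listed, 7 had at least 1 count in some library, and 6 passed the filter on low counts. The other two were Neurog1, with 1 count in all, and Nhlh2, with 0. RNA came from 4 cultures of iMOP cells, mouse otic progenitors that have been immortalized and keep several fates open, labelled wild-type. There were 2 cultures of proliferating cells, grown in DMEM/F12 with B27 and basic FGF at 20 ng/ml. There were 2 cultures of neurons derived from the same line, grown in Neurobasal medium with N21, glutamine and 1 µM K03861, an inhibitor of the kinase CDK2. Both groups thus come from 1 cell line, and the medium, the growth factor and the inhibitor differ between them together. The labels call the libraries biological replicates and both titles of replicate 2 add the words set 2. Whether the cultures were independent is not stated further, so p-values measure the spread between these libraries.

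In neurogenesis these factors act in order. The neurogenins Neurog1 and Neurog2 start the neuronal program, Neurod1, Neurod2 and Neurod4 carry it forward, Nhlh1 and Nhlh2 mark newborn neurons, and Atoh1 specifies hair cells in the inner ear. Each protein binds the DNA sequence called an E-box as a dimer with an E protein (Tcf3, Tcf4 or Tcf12). ID proteins take up the E proteins, and HES and HEY repressors downstream of Notch hold proneural genes low in progenitors. In the inner ear Neurog1 is needed for the neurons of the spiral and vestibular ganglia, and Neurod1 for their survival.

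The total count ranged from 7446361 to 14484011 per library, but the 18S ribosomal RNA row took 53.3% to 76.1% of it, leaving 2595578 to 3850766 counts for all other genes. That share followed the replicate number more than the group. It was 53.3% and 59.4% in proliferating and neuron replicate 1, and 75.0% and 76.1% in proliferating and neuron replicate 2. The part of this in the differences between replicates was not tested. Levels in CPM, counts scaled to a common library size, rest on the TMM-scaled library total, which offsets that row. Proliferating replicate 2 stood apart: its log2 CPM correlated with that of proliferating replicate 1 at r = 0.825 over 12783 tested genes, against 0.918 for the replicate 1 libraries of the 2 groups (genes are not independent replicates). The labels were checked against markers. Of 6 proliferation markers, Mki67 among them, 5 were higher in neurons in both replicate pairs, against 28.8% of all tested genes. The 6 markers summed to 304 and 54.3 CPM in proliferating replicates 1 and 2, and to 386 and 213 CPM in neuron replicates 1 and 2. Proliferating replicate 2 thus had the lowest sum. The median log2 ratio of the 6 was 0.30 in pair 1 and 0.95 in pair 2. Of 8 tested neuron markers 2 were higher in both pairs, against 28.8% of all tested genes, and 6 went opposite ways, against 45.7%. The neurofilament gene Nefm had 0 or 1 count in each library. The proliferation and neuron markers therefore did not separate the groups as labelled, and the group names are used here as labels. In bulk RNA, fewer cells of a type and less RNA per cell cannot be told apart.

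Of the promoters, 3 are shown for how their genes behaved: Neurod1 and Atoh1 went the same way as each other in each replicate pair, and Nhlh1 reached the highest level of all. Each sequence is the 250 bases before the RefSeq start, from GRCm38.p6, the assembly of the build mm10 that the submitters' processing notes name. It is written 5′ to 3′ on the gene's strand, with each E-box (CANNTG, the same on both strands) in capitals.
Neurod1, chr2:79456637-79456886, minus strand: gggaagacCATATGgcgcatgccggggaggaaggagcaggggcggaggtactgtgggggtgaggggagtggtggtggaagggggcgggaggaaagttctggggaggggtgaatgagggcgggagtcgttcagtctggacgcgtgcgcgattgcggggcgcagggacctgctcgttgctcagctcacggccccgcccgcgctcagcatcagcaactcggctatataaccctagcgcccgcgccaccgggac
Atoh1, chr6:64728875-64729124, plus strand: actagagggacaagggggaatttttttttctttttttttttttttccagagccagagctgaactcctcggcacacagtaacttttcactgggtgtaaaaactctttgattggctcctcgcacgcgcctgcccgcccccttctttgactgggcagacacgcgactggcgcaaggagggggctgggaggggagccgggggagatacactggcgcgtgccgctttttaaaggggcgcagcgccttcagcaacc
Nhlh1, chr1:172057597-172057846, minus strand: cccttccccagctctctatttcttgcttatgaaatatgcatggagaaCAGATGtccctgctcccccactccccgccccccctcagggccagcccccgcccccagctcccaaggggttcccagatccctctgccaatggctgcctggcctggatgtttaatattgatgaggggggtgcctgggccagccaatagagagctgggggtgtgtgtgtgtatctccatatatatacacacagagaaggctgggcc
A CANNTG match lay in the windows of 4 of the 8 genes, with 3 matches for Neurod2, 2 for Nhlh2 and 1 each for Neurod1 and Nhlh1. No match was found for Neurog1, Neurog2, Neurod4 and Atoh1, which says only that these letters are not in these windows. The window of Neurog2 (chr3:127632886-127633135) lies inside the gene coordinates given below. That of Nhlh2 (chr3:102009895-102010144) runs past the gene start given below. Among all 27025 promoters of that length, 66.0% held at least 1. The form CATCTG or its complement CAGATG, a subset of CANNTG that neurogenins and NeuroD proteins are known to bind, stood in the windows of Neurod2, Nhlh1 and Nhlh2, and in 14.5% of all promoters. A match is a description and not a measured binding site.

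The question put to the data was which proneural factors were on in proliferating cells and which in neurons. A gene was taken as detected in a library where it had more than 3 counts, the limit that a count of 0 allows (one-sided, where the intervals of other counts are two-sided). Both proliferating libraries and neuron replicate 2 had the same 6 factors detected. In neuron replicate 1 there were 4, since Neurod1 and Atoh1 were at or under that limit. In the edgeR quasi-likelihood test 0 of the 6 tested factors were called higher and 0 lower in neurons at an adjusted p-value under 0.05, against 0% of the 12783 tested genes in each direction. None of the 6 passed at an unadjusted p-value under 0.05 in that test, against 3.43% of all tested genes. DESeq2 also called 0 of the 6, with 0.0893% of genes called higher and 0.373% lower in that test. With the replicate number as a block edgeR called 0 of the 6, against 0% of genes higher and 0.0235% lower, and 1 of the 6, Neurod4, had an unadjusted p-value under 0.05 (0.0354), against 6.18% of all tested genes. Without the block, the adjusted p-value in edgeR was 0.9998 for each of the 6. Their median log2 fold change was -0.12, against 0.02 over all tested genes.

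**Figure D1:**
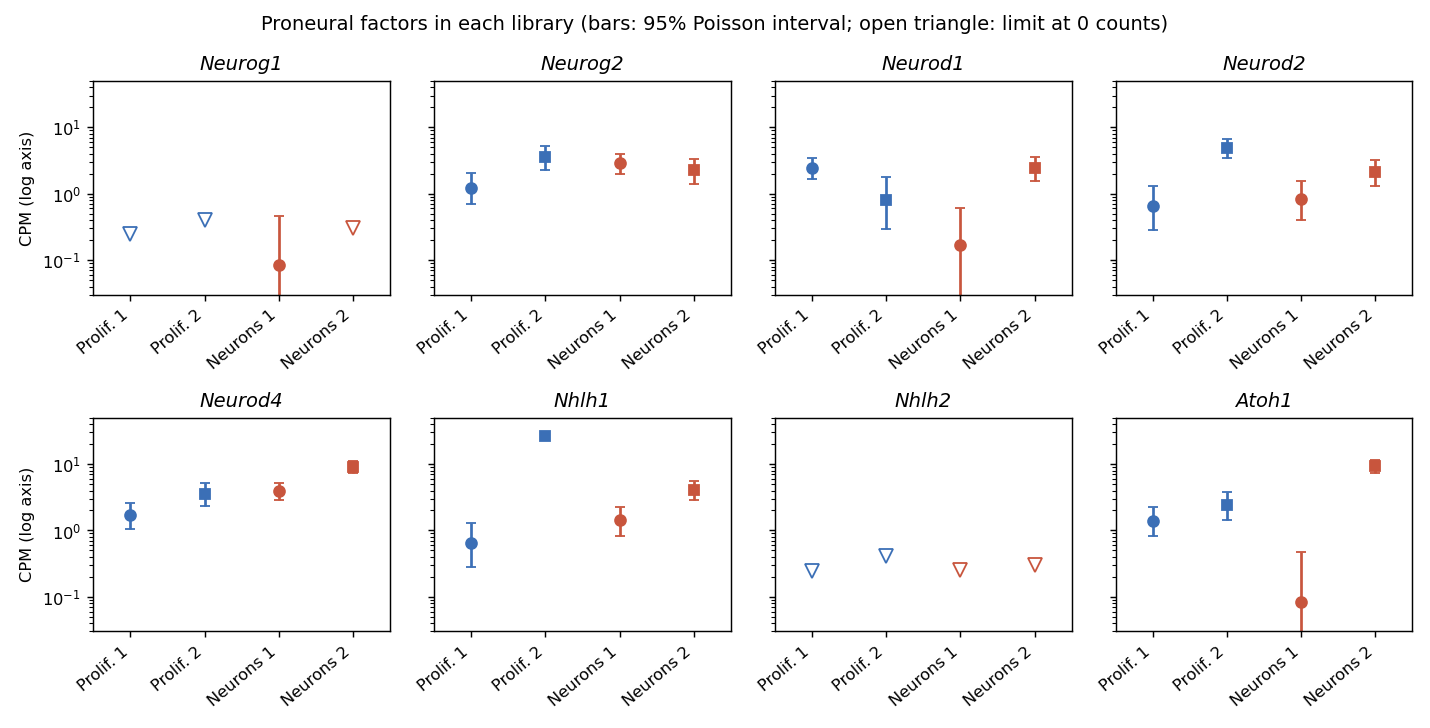
Level of each of the 8 factors in CPM (log axis) in the 4 libraries, blue for proliferating and red for neurons, circles for replicate 1 and squares for replicate 2. Bars are 95% Poisson intervals of the count, some running off the lower edge, and open triangles mark the limit of 3 counts that a count of 0 allows. Neurod4 was higher in both neuron libraries, while Neurod1, Nhlh1 and Atoh1 each had 1 library far from its replicate.

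The neurogenins came first in the order of roles. Neurog1 (chr13:56250478-56252180, minus strand), the determination factor of ear neurons, had 0 counts in both proliferating libraries, 1 count in neuron replicate 1 and 0 in neuron replicate 2. A count of 0 allows up to 3 counts, or 0.246 CPM in proliferating replicate 1, 0.406 CPM in proliferating replicate 2 and 0.306 CPM in neuron replicate 2, so Neurog1 was not detectable at this depth in either group. Neurog2 (chr3:127632733-127635636, plus strand) does similar work in the cortex and in other cranial ganglia. It had 15 and 26 counts in proliferating replicates 1 and 2, and 34 and 22 in neuron replicates 1 and 2. Its level was 1.23 and 3.52 CPM in the proliferating libraries and 2.86 and 2.24 CPM in the neuron libraries. All 4 libraries held it, and both neuron values lay between the proliferating ones. The group means were 2.38 ± 1.62 and 2.55 ± 0.44 CPM (SD, n = 2 each), with a log2 fold change of 0.13 (SE 0.70). It was -0.49 without proliferating replicate 1 and -0.11 without neuron replicate 1.

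Neurod1 (chr2:79452637-79456636, minus strand), which the neurogenins are known to switch on, changed in opposite directions in the replicate pairs. It had 30 and 6 counts in proliferating replicates 1 and 2, and 2 and 24 in neuron replicates 1 and 2, or 2.46, 0.812, 0.168 and 2.45 CPM. The high libraries were thus 1 of each group, and the groups overlapped. Within replicate 1 the neuron library was 14.7-fold lower than the proliferating one (95% counting interval 3.72 to 126.5). Within replicate 2 it was 3.01-fold higher (1.20 to 9.01). Over all 4 libraries the log2 fold change was -0.38 (SE 1.14), and it was -1.25 with library size alone as the scaling. It turned to 0.61 without proliferating replicate 1, to 0.52 without neuron replicate 1 and to -3.22 without neuron replicate 2. In the GENCODE annotation of GRCm38, Neurod1 is overlapped by Cerkl on its own strand and by Gm26755 on the opposite one, while the 7 other factors are overlapped by no gene. Cerkl was listed at 0 counts in all 4 libraries, and how reads in overlaps or on the other strand were counted is not given in the sources used here.

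Neurod2 (chr11:98325415-98329645, minus strand), a factor of maturing neurons, was highest in proliferating replicate 2. It had 8 and 36 counts in proliferating replicates 1 and 2, and 10 and 21 in neuron replicates 1 and 2. In CPM these were 0.657 and 4.87, against 0.841 and 2.14. Both neuron values lay between the proliferating ones, and in each group replicate 2 was the higher library. Proliferating replicate 2 was 7.41-fold above replicate 1 (95% counting interval 3.39 to 18.5), and neuron replicate 2 was 2.55-fold above replicate 1 (1.15 to 6.05). The log2 fold change between the groups was -0.86 (SE 1.00), and it was 1.18 without proliferating replicate 2.

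Neurod4 (chr10:130268152-130280254, minus strand), a neuronal differentiation factor that is also known from the retina and cranial ganglia, was the 1 factor of the 6 for which both neuron libraries lay above both proliferating libraries, against 12.9% of all tested genes. It had 21 and 26 counts in proliferating replicates 1 and 2, or 1.73 and 3.52 CPM. In the neuron replicates it had 46 and 89 counts, or 3.87 and 9.07 CPM. The gap between the groups was narrow, between 3.52 CPM in proliferating replicate 2 and 3.87 CPM in neuron replicate 1. Within replicate 1 the neuron library was 2.24-fold higher (95% counting interval 1.31 to 3.96), and within replicate 2 it was 2.58-fold higher (1.65 to 4.16). The 2 neuron libraries themselves differed by 2.34-fold (1.62 to 3.42) and the 2 proliferating ones by 2.04-fold (1.10 to 3.81). The group means were 2.62 ± 1.27 and 6.47 ± 3.68 CPM (SD, n = 2 each), with a log2 fold change of 1.32 (SE 0.65) that did not pass the test (edgeR adjusted p-value 0.9998). With the replicate number as a block the log2 fold change was 1.26 with an edgeR adjusted p-value of 0.741. Leaving out 1 library at a time gave log2 fold changes from 0.57, without neuron replicate 2, to 1.92, without proliferating replicate 2.

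The Nhlh factors are expressed as precursors leave the cell cycle. Nhlh1 (chr1:172052292-172057596, minus strand) had 8 and 199 counts in proliferating replicates 1 and 2, and 17 and 40 in neuron replicates 1 and 2. In CPM these were 0.657 and 26.9, against 1.43 and 4.08. Proliferating replicate 2 was above every other library, and proliferating replicate 1 was below every other library. Proliferating replicate 2 was also the library with the lowest sum of the 6 proliferation markers, at 54.3 CPM. The proliferating replicates differed by 41.0-fold (95% counting interval 20.4 to 96.2). Within replicate 1 the neuron library was 2.18-fold higher, with an interval of 0.890 to 5.82 that includes equality. Within replicate 2 it was 6.61-fold lower (4.68 to 9.53). The log2 fold change of -2.32 (SE 1.35) was -1.15 with the replicate block and 2.06 without proliferating replicate 2. Without proliferating replicate 1 it was -3.34 and was called (edgeR adjusted p-value 0.0454), in a fit where the lone proliferating library is taken to vary as the neuron libraries do. In that fit 0.628% of tested genes were called lower. Nhlh2 (chr3:102010111-102015492, plus strand), its close relative, had 0 counts in all 4 libraries, which allows up to 0.246 to 0.406 CPM per library.

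Atoh1 (chr6:64729125-64731245, plus strand), the hair cell factor, was present in both proliferating libraries at similar counts and parted in the neurons. It had 17 and 18 counts in proliferating replicates 1 and 2, or 1.40 and 2.44 CPM. In the neuron replicates it had 1 and 91 counts, or 0.0841 and 9.28 CPM. The neuron libraries thus lay on either side of both proliferating ones. Within replicate 1 the neuron library was 16.6-fold lower (95% counting interval 2.60 to 694), and within replicate 2 it was 3.81-fold higher (2.28 to 6.71). The neuron libraries differed from each other by 110.3-fold (19.3 to 4403), while the proliferating ones differed by 1.74-fold with an interval of 0.848 to 3.60. The log2 fold change was 1.29 (SE 1.37). It was -4.32 without neuron replicate 2 and 0.00082 with the replicate block.

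Of 13 hair cell markers 4 were tested and 0 called, and the defining markers differed among themselves. Pou4f3 and Otof had 0 counts in every library, and Gfi1 had 3 counts, all in neuron replicate 2. Myo7a, the hair cell myosin, had 18 counts in proliferating replicate 1, beside 17 of Atoh1, and 0 or 1 elsewhere. Barhl1, a hair cell transcription factor, had 11 and 3 counts in proliferating replicates 1 and 2, and 11 and 3 in neuron replicates 1 and 2. Rasd2 had 29 and 5 counts, and 13 and 147, so that it was highest in neuron replicate 2 and so was Atoh1. Myo6 had 256 and 121 counts, and 54 and 122. The 13 markers summed to 28.4 and 19.2 CPM in proliferating replicates 1 and 2, and to 7.40 and 31.0 CPM in neuron replicates 1 and 2. The lowest and the highest sum were thus in the libraries with the lowest and the highest Atoh1. The highest sum rested largely on 1 gene, since Rasd2 gave 147 of the 304 marker counts in neuron replicate 2. Myo6 gave 256 of the 346 in proliferating replicate 1. Between the proliferating libraries the sum was higher in replicate 1, while Atoh1, at 1.40 and 2.44 CPM, was higher in replicate 2. The part of the 13 markers in the Atoh1 values was not tested.

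**Figure D2:**
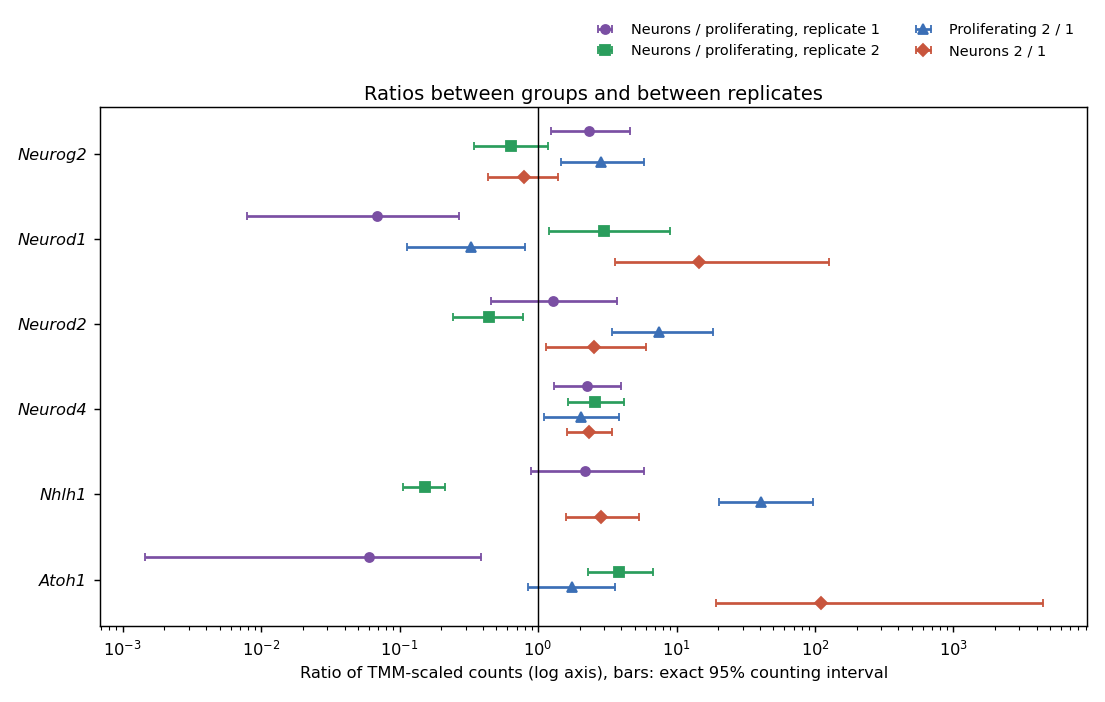
Ratios of TMM-scaled counts (log axis) for the 6 factors that passed the filter, within each replicate pair (purple circles, green squares) and between replicates of a group (blue triangles, red diamonds), with exact 95% counting intervals. The ratios between the groups of Neurod1 and Atoh1 lie on opposite sides of 1, and the replicate ratios of Nhlh1 in proliferating cells (41.0) and Atoh1 in neurons (110.3) exceed every ratio between groups.

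Replicates of 1 group differed beyond counting error about as often as the groups did. The counting interval excluded equality in 9 of 12 ratios between groups within a pair, against 46.4% of such ratios over all tested genes. It did so in 10 of 12 ratios between replicates of 1 group, against 53% over all tested genes. These intervals cover counting error only, since PCR copies cannot be told from separate molecules in these counts, and each compares 2 libraries and not the conditions. The direction was the same in both pairs for 1 of the 6 factors, Neurod4, where 28.8% of all tested genes were higher in both pairs and 25.5% lower. The other 5 went opposite ways, against 45.7% of all tested genes. Neurod1 and Atoh1 were lower in neurons in pair 1 and higher in pair 2, a pattern of 24.5% of genes. Neurog2, Neurod2 and Nhlh1 were higher in pair 1 and lower in pair 2, as 21.2% of genes were. For Neurod2 the direction in pair 1 rests on 10 against 8 counts, a ratio of 1.28 (95% counting interval 0.455 to 3.73), and the intervals of Nhlh1 in pair 1 and Neurog2 in pair 2 also include equality. With library size alone as the scaling the Neurod2 ratio was 0.981 in pair 1 and 0.418 in pair 2, so that 2 of the 6 factors went the same way in both pairs, against 53.2% of all tested genes.

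**Figure D3:**
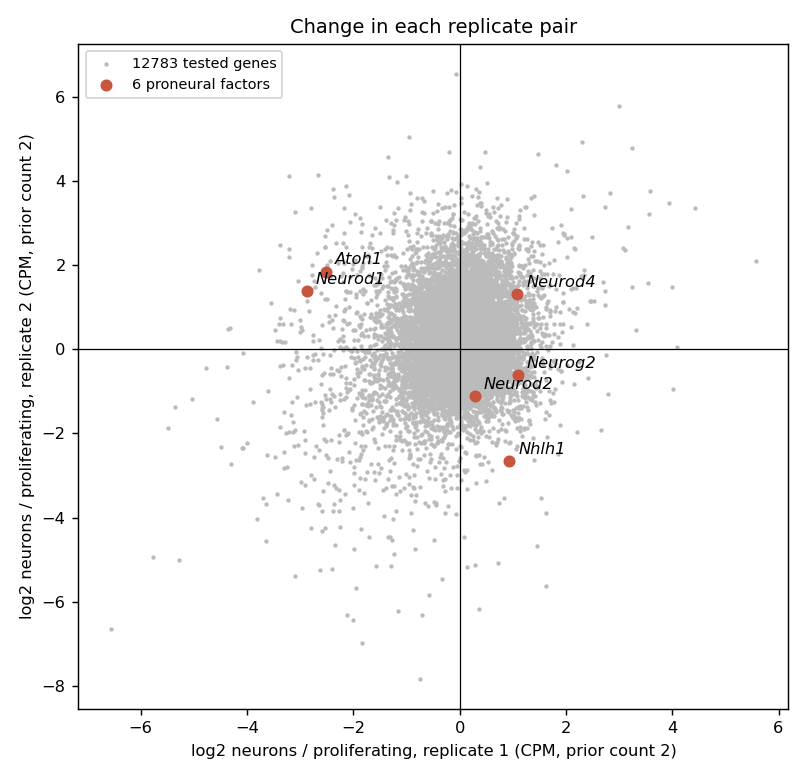
Log2 ratio of neurons to proliferating cells in the replicate 1 pair (x) and the replicate 2 pair (y), from CPM with a prior count of 2, for 12783 tested genes (grey) and the 6 proneural factors (red). Neurod4 lies in the quadrant that is higher in both pairs (1.08 and 1.32), Neurod1 (-2.88 and 1.39) and Atoh1 (-2.52 and 1.85) lie together, and Nhlh1 lies at 0.93 and -2.67.

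Levels of different genes were compared per length, on the RPKM scale of the deposited tables. In proliferating replicate 1 Neurod1 was the highest factor at 1.61 RPKM, which exceeded 74.9% of the genes with a count in that library. In proliferating replicate 2 it was Nhlh1 at 7.71 RPKM, above 93.4% of such genes. In neuron replicate 1 it was Neurog2 at 0.786 RPKM, above 66.3%, and in neuron replicate 2 Atoh1 at 2.96 RPKM, above 90.1%. A different factor was therefore the highest in each of the 4 libraries, though on few counts in replicate 1. In neuron replicate 1 Neurog2 had 34 counts, and Nhlh1 followed closely at 0.721 RPKM, on 17 counts. In proliferating replicate 1 Neurod1 had 30 counts, and Atoh1 followed at 1.08 RPKM, on 17 counts. As group means, Nhlh1 led in proliferating cells at 4.07 ± 5.15 RPKM (SD, n = 2), followed by Atoh1 at 0.947 ± 0.183 and Neurod1 at 0.922 ± 0.977. In neurons Atoh1 led at 1.51 ± 2.06 RPKM, followed by Nhlh1 at 0.916 ± 0.275 and Neurog2 at 0.560 ± 0.321. Below these, Neurog2 (0.495), Neurod2 (0.346) and Neurod4 (0.257) followed in proliferating cells, and Neurod4 (0.530), Neurod1 (0.374) and Neurod2 (0.191) in neurons, as mean RPKM. Neighbours in these orders differed by less than the larger of their SDs, except Nhlh1 and Neurog2 in neurons, whose library values overlapped. The length behind the deposited RPKM of Neurod4 is 10370 bases against 3345 for its longest GENCODE transcript. For Neurog2 these lengths are 4563 against 2227, and for Neurod2 6571 against 3142. In both, the deposited length exceeds the whole span of the gene coordinates given above, which lowers the RPKM. The lengths lie closer for Neurod1 (2498 against 2729), Nhlh1 (2487 against 2464) and Atoh1 (2121 for both). Counted per kilobase of the longest transcript, Neurod4 moved from the fourth to the second place in neurons and Neurod1 from the third to the sixth in proliferating cells, in a calculation that changed the length and the scaling to TMM library size together. With the length alone changed, Neurod4 took the first place in neurons and Neurod1 the fourth in proliferating cells. With the scaling alone changed, the order in proliferating cells stayed as on RPKM, and in neurons Neurod4 and Neurog2 exchanged places. The first place in neurons, Atoh1 or Neurod4, thus rests on the length and scaling used.

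The likeness of other genes was measured as the Euclidean distance of centred log2 CPM over the 4 libraries, and the nearest tested genes of each factor, up to 3, are named as a description. Neurod4 was nearest to Clic1 (distance 0.068), Rerg (0.14) and the transfer RNA gene n-TSaga4 (0.25). Neurod1 was nearest to Mgll (0.30), a lipase, Pnma2 (0.30) and Ndrg1 (0.32). Atoh1 was nearest to Stmn3 (0.43), a neuronal stathmin, Lrrn2 (0.92) and Sez6l2 (0.97). Stmn3 had 12 and 18 counts in proliferating replicates 1 and 2 and 0 and 63 in neuron replicates 1 and 2, the same order of libraries as Atoh1. Neurod2 was nearest to Mvk (0.21) and Fdft1 (0.22), both genes of cholesterol synthesis. Neurog2 was nearest to Ccng2 (0.046), Rpl36a (0.058) and the transfer RNA gene n-TAtgc9 (0.10), and 315 genes lay within 0.5 of it. Nhlh1 had no near neighbour: its nearest were Nxph4 (1.23), Lzts1 (1.25) and Lbh (1.33), and 0 genes lay within 0.5.

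The partners and opponents of these factors were read from the same fit. Across 53 companion genes in 5 lists, 38 were tested and 0 were called by edgeR, against 0% of all tested genes, and 4 had an unadjusted p-value under 0.05 (Olig1, Olig2, Elavl4 and Ntrk2), against 3.43%. DESeq2 called 3 of the companions, Olig1, Olig2 and Ntrk2, each lower in neurons. The 3 E protein genes were detected in every library. Tcf4 had 2855 and 475 counts in proliferating replicates 1 and 2 and 3667 and 1747 in neuron replicates 1 and 2, with a log2 fold change of 0.70 (SE 0.65). Tcf12 had 1023, 639, 1363 and 786 counts and Tcf3 had 356, 406, 493 and 423 in the same order, with log2 fold changes of 0.19 (SE 0.44) and 0.01 (SE 0.49). Of the corepressor genes of the MTG family, which binds E proteins, Cbfa2t3 and Runx1t1 were highest in neuron replicate 2, the library with the most Atoh1. Cbfa2t2 was highest in proliferating replicate 2. Cbfa2t3 had 47 and 15 counts in the proliferating libraries and 34 and 237 in the neuron libraries. Runx1t1 had 31 and 2, and 4 and 54. Cbfa2t2 had 212 and 180, and 224 and 171, or 17.4 and 24.4 CPM, and 18.8 and 17.4 CPM.

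The inhibitors had their lowest sum in neuron replicate 2. The 9 ID, HES and HEY genes summed to 39.9 and 99.9 CPM in proliferating replicates 1 and 2, and to 55.3 and 17.9 CPM in neuron replicates 1 and 2. Of the 8 tested, 6 were lowest in that library, while Id2 was lowest in neuron replicate 1 and Hey1 in proliferating replicate 1. Of the 8, 5 were lower in neurons in both pairs, against 25.5% of all tested genes, and 3 went opposite ways, against 45.7%. The median log2 fold change of the 8 was -0.97, and 0 were called. Some of these directions rest on near-equal counts. In replicate 2 Hey2 had 3 counts in each group, so its direction and its lowest place there rest on the scaling. Id4 had 23 counts in proliferating and 24 in neuron replicate 2, and Id1 had 32 and 27 in replicate 1. Hes5, a main Notch effector, had 79 and 181 counts in the proliferating libraries and 243 and 3 in the neuron libraries. Hes1 had 88 and 95 counts, and 63 and 8. Id3 had 27 and 210 counts, and 76 and 9. Neuron replicate 1, with 243 counts of Hes5, had 1 count of Atoh1 and 2 of Neurod1, and neuron replicate 2, with 3 counts of Hes5, had 91 and 24. In the proliferating libraries Hes5 was at 6.49 and 24.5 CPM in replicates 1 and 2. Atoh1, at 1.40 and 2.44 CPM, was also higher in replicate 2 and did not show this opposition. Neurod1, at 2.46 and 0.812 CPM, was lower in replicate 2 and thus ran opposite to Hes5. Neurog2, Neurod2 and Nhlh1 were highest in proliferating replicate 2, at 3.52, 4.87 and 26.9 CPM, and so was Hes5. Neurod4 was highest in neuron replicate 2, at 9.07 CPM, where Hes5 was lowest, at 0.306 CPM. From neuron replicate 1 to neuron replicate 2 Neurog2 fell as Hes5 did, while Neurod2, Neurod4 and Nhlh1 rose. A relation between these genes over the 4 libraries was not tested.

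**Figure D4:**
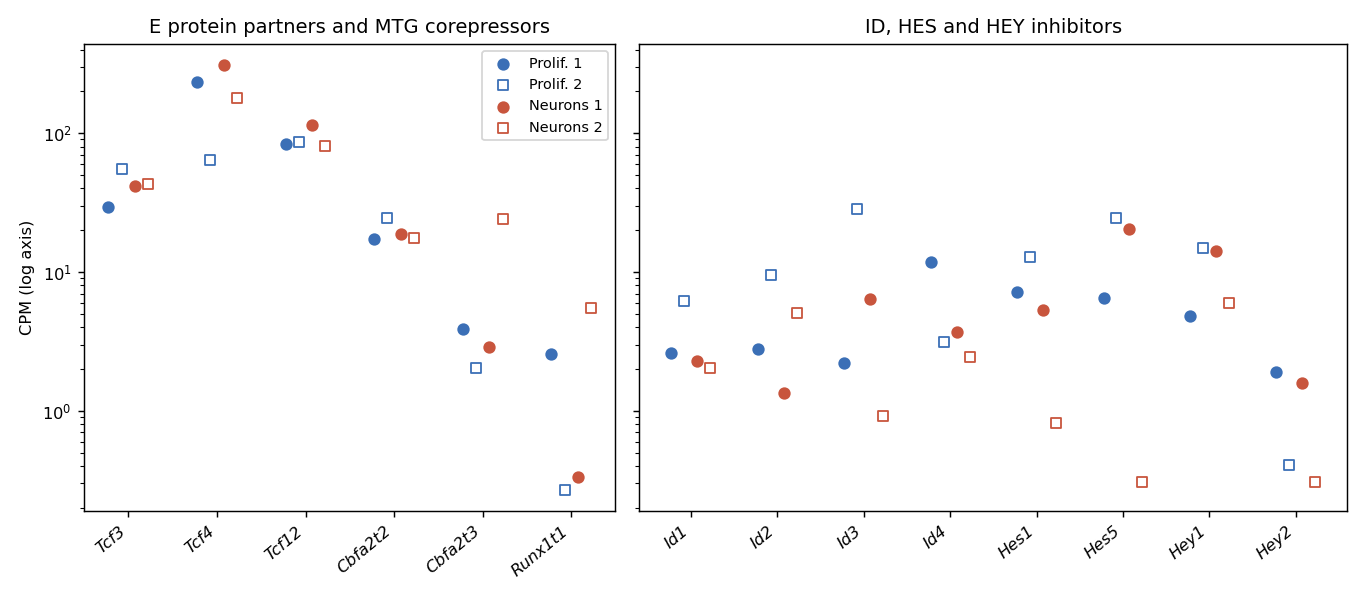
CPM (log axis) of the 6 E protein and corepressor genes (left) and the 8 tested ID, HES and HEY genes (right) in each library, filled circles for replicate 1 and open squares for replicate 2, blue for proliferating and red for neurons. Hes1, Hes5 and Id3 were lowest in neuron replicate 2, and Cbfa2t3 and Runx1t1 were highest there, while Cbfa2t2 was highest in proliferating replicate 2.

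Regulators upstream of Neurog1 in the ear were partly present. Sox2, the progenitor factor, had 362 and 355 counts in the proliferating libraries and 402 and 216 in the neuron libraries. Eya1 had 62 and 27, and 103 and 57. Gata3 had 0 to 2 counts per library and Pax2 had 0 throughout. Among 12 other neural basic helix-loop-helix genes 4 were tested. Olig2, known from the oligodendrocyte lineage, had 48 and 445 counts in the proliferating libraries and 10 and 5 in the neuron libraries, and Olig1 had 31 and 167, and 3 and 4. Both were below the proliferating libraries in both neuron libraries, against 14.5% of all tested genes, and neither was called by edgeR (adjusted p-value 0.775 each). The 9 glial markers summed to 45.0 and 73.5 CPM in proliferating replicates 1 and 2, and to 23.6 and 8.97 CPM in neuron replicates 1 and 2. Of these, Sox10 had 0 to 2 counts per library, and Gfap had 181 and 89 counts, and 1 and 2. The 6 fibroblast markers summed to 7.14 to 17.2 CPM per library, with Dcn and Col1a2 at 0 throughout. The part of these cell types in the values above was not tested.

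Genes known to lie downstream of proneural factors did not move together. Of 20, 18 were tested, 0 were called, 7 were higher in neurons in both pairs (28.8% of all tested genes), 3 lower (25.5%) and 8 went opposite ways (45.7%), and the median log2 fold change was 0.17. Both neuron libraries lay above both proliferating ones for 4 of them, against 12.9% of all tested genes. The Notch ligand gene Dll1, a direct target of neurogenins, had 129 and 210 counts in the proliferating libraries and 393 and 397 in the neuron libraries, or 19.5 ± 12.6 against 36.8 ± 5.24 CPM (SD, n = 2 each). Its log2 fold change was 0.92 (SE 0.57). Ntrk2, the receptor of the neurotrophin BDNF, had 890 and 241 counts, and 49 and 61, with a log2 fold change of -3.36 (SE 0.60, edgeR adjusted p-value 0.769). Isl1, a factor of ear neurons, had 0 counts throughout, and Pou4f1, another, had 63 and 86 counts in the proliferating libraries and 62 and 69 in the neuron libraries.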

How the data were processed

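The study deposited 2 files per library, and all 4 libraries were used, 2 per group, grouped by the sample titles. Per the labels' protocols, an input of 500 ng of RNA was cleared of ribosomal RNA, stranded libraries were made and 8 pooled libraries were sequenced with paired reads of 150 bases. The 4 others of that pool are not analysed here. The submitters' processing notes name HISAT2, SAMtools, featureCounts, DESeq2, deepTools 3.4.3 and the build mm10, and their settings are not given in the sources used here. The authors deposited raw counts per gene symbol. The authors also deposited RPKM values, and for the 25859 genes with a count these equal the count divided by the library total, 18S row included, and by 1 length per gene. All 49997 symbols matched the RefSeq table of GRCm38.p6, whose coordinates are given.

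Counts were tested with edgeR 4.0.16 in R 4.3.3 (TMM, filterByExpr with a minimum count of 10 and total of 15, estimateDisp, glmQLFit, glmQLFTest) in a model that held the group alone, two-sided, and Benjamini-Hochberg adjustment over 12783 genes at 0.05. SE is the log2 fold change divided by the root of the F statistic. Alternatives included DESeq2 1.42.0 and limma 3.58.1. Ratios of 2 libraries have exact conditional binomial intervals, and counts exact Poisson intervals, both at 95%, computed with scipy 1.17.1 in Python 3.11.15. With 2 libraries against 2, the smallest two-sided p of an exact permutation test is 0.333, and none was used. The fits and intervals were tested on simulated data. Both titles of replicate 2 name a set, and deviations of same-numbered libraries from their group means correlated at r = 0.33 across genes, so the replicate number was also fitted as a block. What a set is, a day, a batch or a culture, is not stated. The factors and lists were chosen with earlier results of these data known. The text could name any factor, any gene of the lists, and the 3 genes of most like pattern for each tested factor. Some genes that this rule allows are not reported here.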

Additional observations from a re-analysis of the deposited data

How the results depend on the processing

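The count of called genes was 0 in the test as reported, with RLE size factors and with the 18S row left out, and the filter of CPM of at least 1 in 2 libraries kept the same genes. It was 2 with library size alone, 57 in DESeq2 (11 higher, 46 lower), 163 without a gene filter (41 higher, 122 lower), 1 on log2(RPKM + 1), 2 on log2(RPKM + 0.1) and 3 with the replicate block. Leaving out 1 library gave 18 to 113. Library size alone shifted the log2 fold changes of all genes by a median of -0.30, and the 2 RPKM scales by -0.15 and -0.19. Among the companions, 3 were called in DESeq2 and 3 without a gene filter, and 1 to 3 when 1 library was left out. Of the factors, 0 were called in the 9 alternatives that keep all libraries, and 0 or 1 when 1 was left out. The replicate block called none of the factors or companions. The cause of these differences was not tested, except that fewer libraries or other gene sets were used by construction.

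The log2 fold change reversed when 1 library was left out for Neurog2 (-0.49 to 1.06), Neurod1 (-3.22 to 0.61), Neurod2 (-1.75 to 1.18), Nhlh1 (-3.34 to 2.06) and Atoh1 (-4.32 to 2.24), and that of Neurod4 stayed between 0.57 and 1.92. That of Atoh1 was also -0.62 on log2(RPKM + 0.1). With the longest transcript and TMM library size, 2 changes at once, the rank in proliferating cells was 2 for Neurog2 (4 on RPKM), 6 for Neurod1 (3), 4 for Neurod2 (5), 5 for Neurod4 (6) and 3 for Atoh1 (2), and in neurons 2 for Neurod4 (4) and 4 for Nhlh1 (2). Each change alone was added after seeing the data. With the length alone the ranks that moved in proliferating cells were 2 for Neurog2, 4 for Neurod1, 6 for Neurod2, 5 for Neurod4 and 3 for Atoh1, and in neurons 6 for Neurod1, 5 for Neurod2, 1 for Neurod4, 4 for Nhlh1 and 2 for Atoh1. With the scaling alone they were 4 for Neurog2 and 3 for Neurod4, both in neurons. The 36 values of ratios within pairs under other scalings, also chosen after seeing the data, stayed within the counting intervals, but that of Neurod2 in pair 1 crossed equality, from 1.28 to 0.981 with library size alone. The low counts of the factors, at most 199 in a library, limit what these data can resolve.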
